A study of Homo sapiens with 5 samples.

Results

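The WNT ligands, their Frizzled (FZD) receptors and the secreted SFRP and DKK proteins that restrain them were followed in HT1376, an established human bladder carcinoma cell line. Members were the protein-coding RefSeq genes of GRCh38 whose symbols begin with WNT, FZD, SFRP or DKK and a number, plus DKKL1. This gave 38 of 19974 protein-coding genes, namely 19 WNT, 10 FZD, 4 SFRP and 5 DKK genes. Cells were given 250 nM CPI-0209, an inhibitor of the histone methyltransferase EZH2, or the vehicle DMSO, and were fixed with formaldehyde for chromatin immunoprecipitation and sequencing (ChIP-seq). Antibodies against H3K27me3 and against EZH2 gave 4 groups, H3K27me3 CPI-0209, H3K27me3 DMSO, EZH2 CPI-0209 and EZH2 DMSO, with 1 library each. The study's design gives the treatment as 8 days, one protocol in the labels also speaks of 4 days, and the lists were taken to be of 8 days. An input library is also labelled and was not analysed here. For each group the data are called intervals on hg38, without scores or read counts, so depth is unknown. With 1 library per group no difference between CPI-0209 and DMSO cells had a replicate check, and no test between them was possible. The cells are 1 line, and interval lists hold no expression, so line identity could not be read from them. Of 8 epithelial marker genes, 1 had H3K27me3 at a gene end in CPI-0209 and 1 in DMSO, beside 21.7% and 31.3% of all genes. The counts were 2 and 2 of 5 fibroblast genes, and 0 and 1 of 4 blood genes.

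WNT proteins are secreted lipid-modified signals that bind Frizzled receptors. Together with a co-receptor of the LRP family this stabilises β-catenin, and WNT signals can also steer cell polarity. SFRP proteins carry a Frizzled-like domain and bind WNTs outside the cell, and some DKK proteins, such as DKK1, block the LRP co-receptors. EZH2 is the enzyme of Polycomb repressive complex 2, which places H3K27me3, a mark of repressed chromatin that is common at developmental signalling genes. SFRP and DKK genes are often silenced in epithelial tumours.

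Sequences around 6 annotated starts are shown because these starts took different combinations of calls. A start counted as marked when an interval overlapped the 2 kb either side of it, so a call need not lie on the printed bases. Each is the RefSeq promoter of GRCh38.p14, 250 bases before and 50 bases from the start, read 5′ to 3′ on the gene's strand, with each CG dinucleotide in capitals. WNT1 (chr12:48978072-48978371, plus strand) had H3K27me3 in both conditions, while FZD4 (chr11:86955346-86955645, minus strand) and DKKL1 (chr19:49363627-49363926, plus strand) had it in DMSO alone. FZD9 (chr7:73433528-73433827, plus strand) had H3K27me3 in CPI-0209 alone, in an interval that began at 73434001, downstream of the printed bases. FZD5 (chr2:207769857-207770156, minus strand) had EZH2 without H3K27me3, and WNT8B (chr10:100462759-100463058, plus strand) had no call at its start.
WNT1: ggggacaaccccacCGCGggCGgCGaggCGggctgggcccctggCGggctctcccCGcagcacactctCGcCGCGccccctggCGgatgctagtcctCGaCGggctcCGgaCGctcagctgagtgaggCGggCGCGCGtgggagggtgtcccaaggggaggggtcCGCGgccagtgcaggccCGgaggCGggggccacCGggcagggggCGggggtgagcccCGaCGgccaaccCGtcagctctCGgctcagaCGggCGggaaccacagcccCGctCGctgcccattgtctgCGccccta
FZD4: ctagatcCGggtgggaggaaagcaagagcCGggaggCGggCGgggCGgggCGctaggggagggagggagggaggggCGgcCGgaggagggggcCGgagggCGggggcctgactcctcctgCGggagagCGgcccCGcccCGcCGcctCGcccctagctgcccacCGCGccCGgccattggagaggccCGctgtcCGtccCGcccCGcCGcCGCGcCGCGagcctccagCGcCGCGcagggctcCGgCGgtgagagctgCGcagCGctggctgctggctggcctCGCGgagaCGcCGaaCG
DKKL1: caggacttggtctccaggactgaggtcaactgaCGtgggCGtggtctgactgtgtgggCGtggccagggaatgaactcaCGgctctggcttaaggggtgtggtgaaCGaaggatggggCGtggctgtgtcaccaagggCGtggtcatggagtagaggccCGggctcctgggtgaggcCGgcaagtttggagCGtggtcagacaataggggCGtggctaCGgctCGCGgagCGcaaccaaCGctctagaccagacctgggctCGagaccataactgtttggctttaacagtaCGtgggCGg
FZD9: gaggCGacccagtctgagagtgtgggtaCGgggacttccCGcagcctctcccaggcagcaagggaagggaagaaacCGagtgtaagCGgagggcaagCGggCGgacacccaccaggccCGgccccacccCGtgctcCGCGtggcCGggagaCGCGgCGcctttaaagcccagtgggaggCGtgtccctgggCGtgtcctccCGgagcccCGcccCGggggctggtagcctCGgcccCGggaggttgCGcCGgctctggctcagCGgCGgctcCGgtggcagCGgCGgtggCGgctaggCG
FZD5: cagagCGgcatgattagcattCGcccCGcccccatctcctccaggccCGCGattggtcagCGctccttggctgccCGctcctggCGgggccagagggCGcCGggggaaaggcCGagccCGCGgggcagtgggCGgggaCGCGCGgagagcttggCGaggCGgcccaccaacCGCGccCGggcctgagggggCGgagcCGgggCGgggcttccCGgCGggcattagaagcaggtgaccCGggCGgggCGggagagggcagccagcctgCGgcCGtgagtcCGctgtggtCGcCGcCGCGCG
WNT8B: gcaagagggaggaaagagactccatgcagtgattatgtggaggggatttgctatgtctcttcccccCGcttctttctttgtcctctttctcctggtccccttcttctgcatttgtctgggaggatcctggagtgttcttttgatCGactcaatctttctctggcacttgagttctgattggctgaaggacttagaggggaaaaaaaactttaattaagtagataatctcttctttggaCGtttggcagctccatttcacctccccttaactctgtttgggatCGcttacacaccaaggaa
The CG dinucleotide, the only motif searched and the same on both strands, occurs 34 times in the WNT1 sequence, 40 times in FZD4, 19 in DKKL1, 31 in FZD9, 38 in FZD5 and 4 in WNT8B. At least 1 is present in 98.05% of the 22132 promoters of this length listed for protein-coding genes, with a median of 21. The FZD4 start, which had H3K27me3 in DMSO alone, and the FZD5 start, which had none, are both rich in it. Over the 29 listed starts of 26 members the median was 28, and the table has no entry for the other 12 members.

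H3K27me3 was called near the ends of about as many members in CPI-0209 cells as in DMSO cells, and over shorter stretches. The H3K27me3 lists covered 113.8 Mb in CPI-0209 and 315.1 Mb in DMSO, and how far that sets the calls here was not tested. A gene-record end counted as marked when an interval overlapped the window of 2 kb either side of it. At least 1 end was marked at 19 members in CPI-0209 and 20 in DMSO, against 21.7% and 31.3% of all protein-coding genes. Both ends were marked at 8 members in CPI-0209 and 11 in DMSO, with shares of 8.68% and 15.2% over all genes. Of the 20 members marked in DMSO, 18 were marked in CPI-0209 (90%, exact binomial 95% limits 68.3 to 98.8%), where all genes gave 68%. The limits here and below cover counting error over genes only, and say nothing of the spread between cultures. They also treat genes as independent, although WNT10B and WNT1, and WNT3 and WNT9B, each shared 1 DMSO H3K27me3 interval. The 2 without a call in CPI-0209 were the receptor gene FZD4 and DKKL1, a DKK-like gene known for its expression in testis. Of the 11 members with both ends marked in DMSO, 7 had both in CPI-0209 (63.6%, 30.8 to 89.1%), beside 56.3% of all such genes. Another 3 had 1 end and 1 had neither, beside 27.2% and 16.6%. Fewer ends were marked in CPI-0209 than in DMSO at 5 members (14.2% of all genes), and more ends at 1, FZD9 (0.541%). When only the widest DMSO intervals were used, enough to match the length covered in CPI-0209, 7 of the 20 DMSO members still had a marked end in DMSO, and FZD4 and DKKL1 were among the many that did not.

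**Figure D1:**
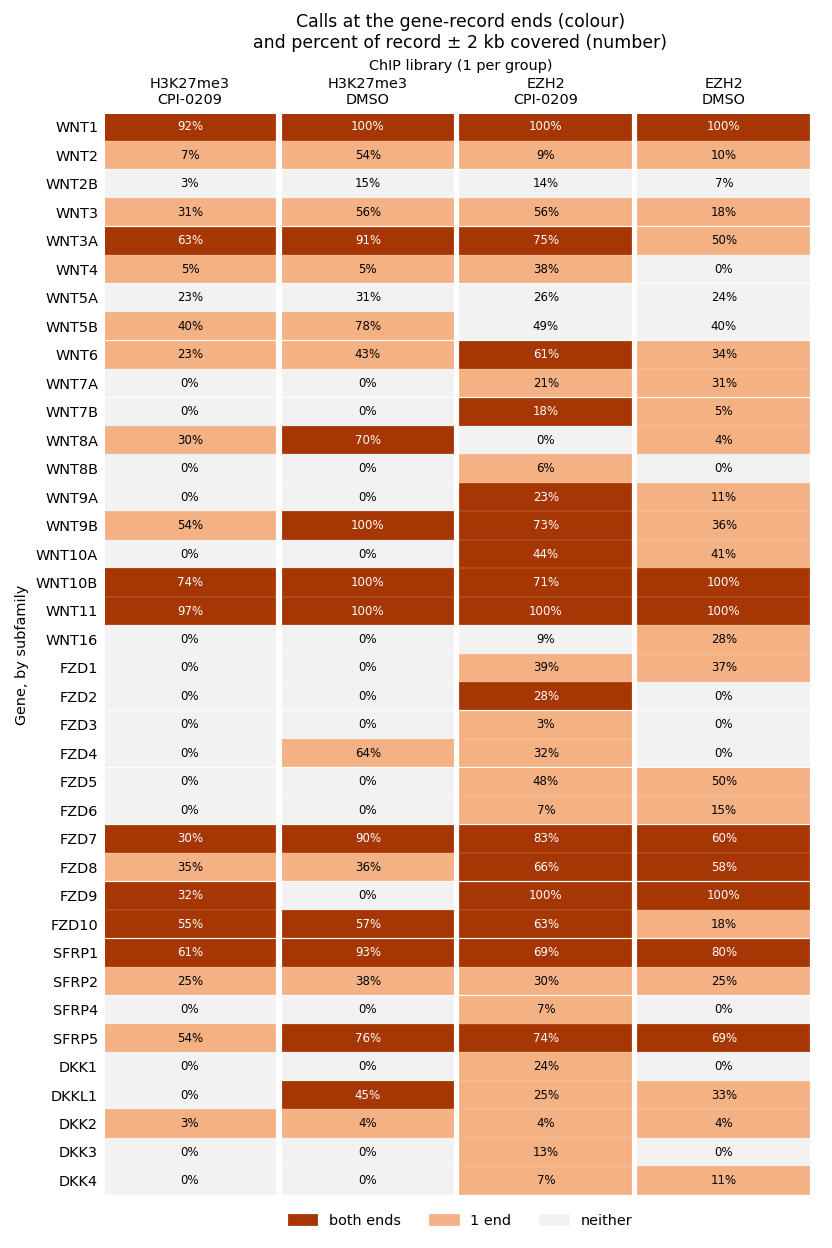
Calls at both gene-record ends of the 38 genes (rows) in the 4 libraries (columns), with colour for both ends, 1 end or neither and the number giving the percent of the gene record and 2 kb on either side that intervals cover. WNT1, WNT10B, WNT11, FZD7 and SFRP1 are marked at both ends in every column, and 19 genes in the H3K27me3 CPI-0209 column and 18 in the H3K27me3 DMSO column have neither end marked.

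Among the ligand genes, 11 of 19 had an H3K27me3 end in CPI-0209 and 11 in DMSO, beside 21.7% and 31.3% of all genes. The marked ligands were WNT1, WNT2, WNT3, WNT3A, WNT4, WNT5B, WNT6, WNT8A, WNT9B, WNT10B and WNT11. WNT11, a ligand of non-canonical signalling (chromosome 11, 76186325 to 76210761), was the most fully covered: H3K27me3 lay over 97.2% of its record and 2 kb flanks in CPI-0209, in 2 pieces, and over 100% in DMSO, in 1. Its widest H3K27me3 interval measured 23.2 kb in CPI-0209 and 87.2 kb in DMSO, while its EZH2 interval measured 65.8 kb and 58.8 kb. The gene was thus still almost wholly covered although the surrounding interval was much shorter. WNT3A, a canonical ligand of the early embryo (chromosome 1, 228006998 to 228061271), had 63.3% covered in CPI-0209 in 6 pieces and 91.1% in DMSO in 3. EZH2 covered 74.9% of the same WNT3A stretch in CPI-0209 and 50.5% in DMSO. The WNT3A start itself was covered in all 4 lists, and the gaps in CPI-0209 lay inside the gene. WNT6, expressed in embryonic epithelia, had 22.8% covered in CPI-0209 and 43.4% in DMSO, with only its start marked in each. At WNT2 the values were 7.48% and 54.4%, and its start lay under an interval of 4.6 kb in CPI-0209 and of 12.2 kb in DMSO.

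Several ligand genes lie side by side, and neighbours were not always marked alike. WNT10B and WNT1 are 6.59 kb apart on chromosome 12 and shared a single H3K27me3 interval of 43.4 kb in DMSO (48957801 to 49001200), so their DMSO calls are 1 event. In CPI-0209 they had separate intervals, the widest being 9.2 kb at WNT10B and 7.8 kb at WNT1, while 1 EZH2 interval of 33.8 kb touched both. WNT3 and WNT9B, on chromosome 17, likewise shared a DMSO interval of 116.8 kb and had CPI-0209 intervals of 16.0 kb and 18.2 kb at most. WNT9B, which acts in kidney tubule formation, had H3K27me3 over 54.5% of its record and flanks in CPI-0209, in 4 pieces, and over 100% in DMSO. The end at the lower coordinate had the call in DMSO alone, while the annotated start inside the record was covered in both. By contrast, WNT9A lies 59.06 kb from WNT3A and had H3K27me3 at neither end in CPI-0209 or DMSO. WNT10A overlaps the end of WNT6 by 118 bp and had none either. Both had EZH2, which marked the 2 ends of WNT9A and of WNT10A in CPI-0209 and a single end in DMSO.

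The cover of the windows themselves, summed over both ends, ranged widely at the 12 members with both ends marked in either H3K27me3 list. For WNT11 it was 100% in all 4 lists. WNT1 had 91.5% under H3K27me3 in CPI-0209 and 100% in DMSO, and 100% under EZH2 in both. WNT3A had 100% under H3K27me3 in both conditions and 100% and 50% under EZH2 in CPI-0209 and DMSO. These 3 ligand genes were the most fully marked in CPI-0209. WNT10B had 66.7% under H3K27me3 in CPI-0209 and 100% in DMSO, and 67.5% and 100% under EZH2. WNT9B had 50% and 100% under H3K27me3, and 60% and 25% under EZH2. WNT8A, a ligand of early mesoderm, had 10.4% and 60.4% under H3K27me3, by intervals of 5.6 kb in CPI-0209 and 63.0 kb in DMSO, and EZH2 touched 1 of its windows in DMSO alone. Among receptors, FZD7 had 25.2% under H3K27me3 in CPI-0209 and 89.5% in DMSO, and 82.0% and 57.0% under EZH2. FZD10 had 59.0% and 60.8% under H3K27me3, and 66.5% and 16.7% under EZH2. The FZD9 windows were 45.7% under H3K27me3 in CPI-0209 and bare of it in DMSO, and wholly under EZH2 in both. Among the SFRP and DKK genes, SFRP1 had 69.5% and 100% under H3K27me3, and 100% and 99.5% under EZH2. SFRP5 had 50% and 71.9% under H3K27me3, and 69.4% and 64.4% under EZH2. DKKL1 had no H3K27me3 in its windows in CPI-0209 and 80.4% in DMSO, with 16.4% and 48.9% under EZH2. H3K27me3 cover was lower in CPI-0209 at 9 of the 12, equal at WNT11 and WNT3A, and higher at FZD9. WNT8A, WNT9B, SFRP5 and DKKL1 had both ends marked in DMSO alone, and FZD9 in CPI-0209 alone. The direction at these genes follows in part from how the 12 were chosen.

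**Figure D2:**
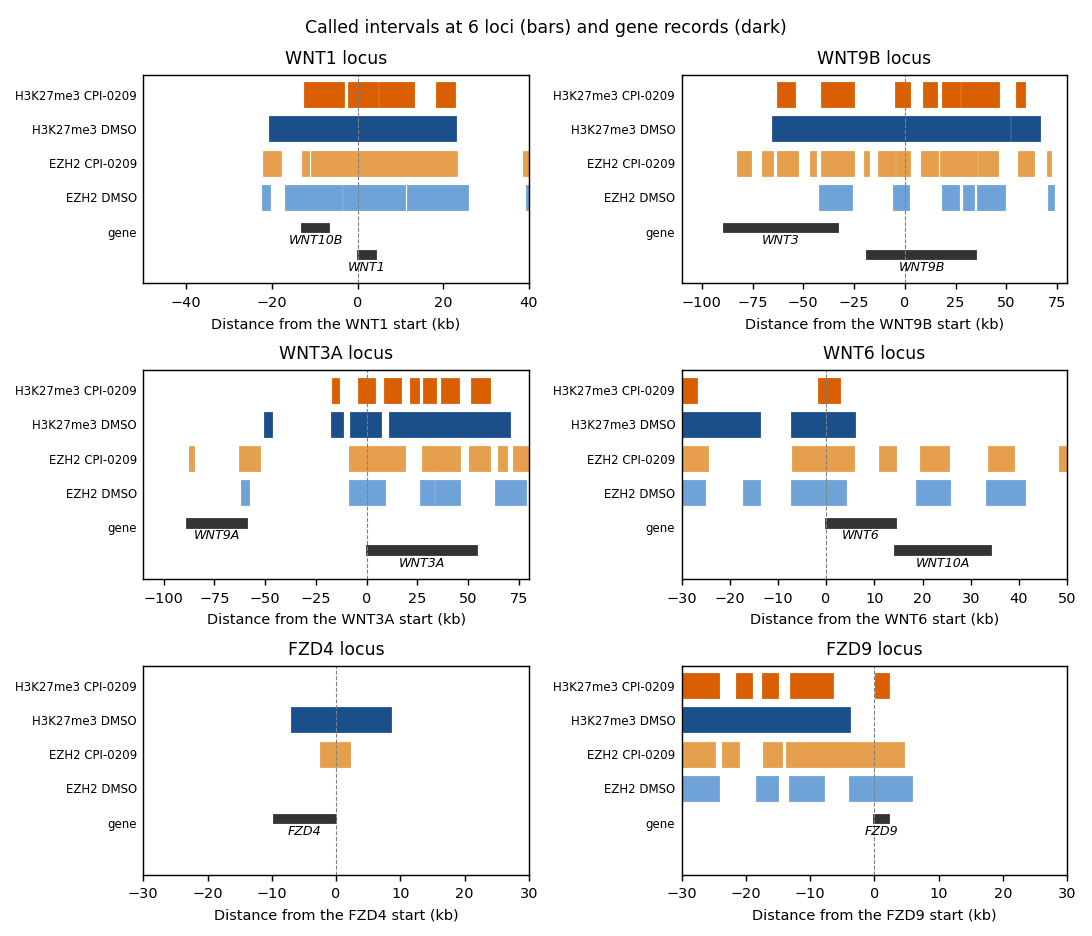
Called intervals (coloured bars, CPI-0209 above DMSO for each antibody) and gene records (dark bars) at 6 loci, by distance in kb from the start of the named gene, with chromosome coordinates increasing to the right. The single 43.4 kb DMSO H3K27me3 bar over WNT10B and WNT1 is several bars in CPI-0209, FZD4 has H3K27me3 in DMSO alone and EZH2 in CPI-0209 alone, and FZD9 has a 2.0 kb H3K27me3 bar in CPI-0209 alone.

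Among the receptor genes there was a call in CPI-0209 alone as well as a call in DMSO alone. Of 10 FZD genes, 4 had an H3K27me3 end in CPI-0209 (FZD7, FZD8, FZD9 and FZD10) and 4 in DMSO (FZD4, FZD7, FZD8 and FZD10). The shares over all genes were 21.7% in CPI-0209 and 31.3% in DMSO. FZD7, a receptor of stem and epithelial tumour cells (chromosome 2, 202033855 to 202038441), had 30.3% of its record and flanks covered in CPI-0209 and 90.2% in DMSO, by intervals of 2.6 kb and 17.0 kb. EZH2 at FZD7 covered 83.2% in CPI-0209 and 59.9% in DMSO, so the order was the other way round. FZD10 was close to even in H3K27me3, at 55.0% in CPI-0209 and 56.9% in DMSO, and EZH2 covered 63.2% and 18.4%. FZD8 had 34.8% and 36.0%, with intervals of 2.8 kb in CPI-0209 and 6.8 kb in DMSO that share 1 edge.

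FZD4, the receptor of norrin in retinal vessels (chromosome 11, 86945679 to 86955395), had no H3K27me3 in CPI-0209, where the nearest interval lay 173.3 kb from the record, against 64.1% of record and flanks covered in DMSO. EZH2 took the opposite pattern, with an interval of 4.6 kb over the FZD4 start in CPI-0209, against none within 273.1 kb in DMSO. FZD9, a receptor gene of the Williams syndrome region (chromosome 7, 73433778 to 73436120), had H3K27me3 over 31.5% of record and flanks in CPI-0209, against none in DMSO. It was 1 of 9 protein-coding genes of 19974 (0.0451%) with neither end marked in DMSO and both in CPI-0209. The CPI-0209 interval there measured 2.0 kb (73434001 to 73436000), and in DMSO an H3K27me3 interval ended 3.8 kb before the record. EZH2 covered all of FZD9 and its flanks in both conditions, in intervals of 18.2 kb in CPI-0209 and 9.6 kb in DMSO. With a window of 5 kb FZD9 had 1 H3K27me3 end in DMSO, so the call of a gain rests on the window and on 1 narrow interval.

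In the SFRP and DKK families, 3 of 4 SFRP genes had a marked end in each condition. Of 5 DKK genes, 1 had a marked end in CPI-0209 and 2 in DMSO. Over all genes 21.7% had an H3K27me3 end in CPI-0209 and 31.3% in DMSO. SFRP1 (chromosome 8, 41261962 to 41309473), a widely studied tumour suppressor candidate, had 60.7% covered in CPI-0209 in 5 pieces and 93.4% in DMSO in 2, with widest intervals of 10.0 kb and 71.4 kb. EZH2 covered 69.3% of it in CPI-0209 and 80.5% in DMSO. SFRP5 had 54.0% and 75.7% of H3K27me3 cover, and its widest interval measured 6.2 kb in CPI-0209 and 24.4 kb in DMSO. SFRP2 had H3K27me3 over its start in both, at 4.8 kb in CPI-0209 and 8.0 kb in DMSO, and SFRP4 had none in either. DKK2 differed little, with an interval of 3.8 kb in CPI-0209 and 4.4 kb in DMSO at 1 end of a 114.5 kb record. DKKL1 (chromosome 19, 49360515 to 49375116) had H3K27me3 at neither end in CPI-0209, against both ends and 44.7% of record and flanks in DMSO. The nearest CPI-0209 H3K27me3 interval lay 38.5 kb from DKKL1, while EZH2 was called at 1 end in both conditions, over 4.6 kb in CPI-0209 and 6.2 kb in DMSO. DKK1, itself a target of WNT signalling, DKK3 and DKK4 had no H3K27me3 end in either condition.

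The members marked in both conditions had narrower H3K27me3 intervals in CPI-0209. At the 18 members with an H3K27me3 end in both conditions, the widest interval at an end was narrower in CPI-0209 at 18 of 18, with medians of 5.9 kb in CPI-0209 and 22.7 kb in DMSO. The CPI-0209 widths ran from 2.2 kb at WNT4 to 23.2 kb at WNT11, and the DMSO widths from 4.4 kb at DKK2 to 116.8 kb at WNT3 and WNT9B. Over all 4254 such protein-coding genes the medians were 6.4 kb and 23.4 kb, and 4155 were narrower in CPI-0209. The median ratio of CPI-0209 to DMSO width was 0.26 for the members and 0.333 over all genes. With gaps under 5 kb joined, the members' medians were 10.8 kb in CPI-0209 and 43.4 kb in DMSO, still narrower at 18 of 18. These widths are of merged intervals, and the intervals of a list overlap to a different extent in each list. Of the covered length, 12.9% lay under 2 or more intervals in H3K27me3 CPI-0209 and 62.7% in H3K27me3 DMSO, and for EZH2 50.8% in CPI-0209 and 17.8% in DMSO. No source used here says what each list combines, and the part of this overlap in the widths was not tested. At the 25 members with an EZH2 end in both conditions, EZH2 intervals were narrower in CPI-0209 at 10 and wider at 15, with medians of 7.0 kb and 7.6 kb and a median ratio of 1.05. Over all 10379 such genes they were narrower in CPI-0209 at 6207 and wider at 3845, with medians of 5.4 kb and 6.6 kb and a median ratio of 0.885.

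**Figure D3:**
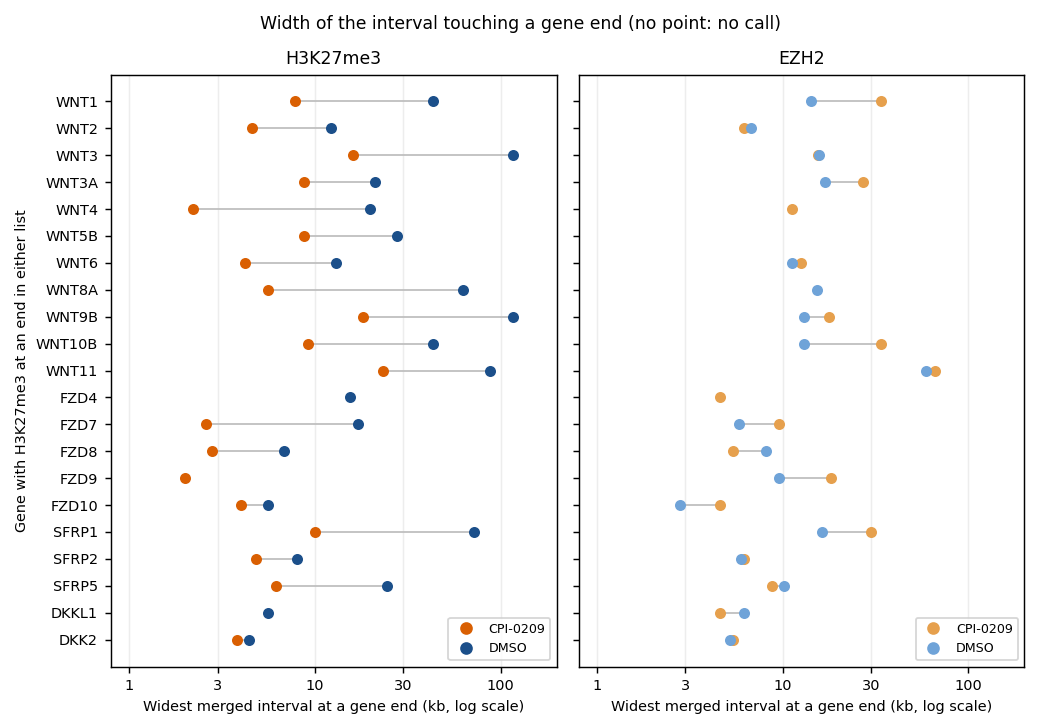
Width in kb (log scale) of the widest merged interval touching a gene end in CPI-0209 and DMSO, for H3K27me3 (left) and EZH2 (right), at the 21 genes with H3K27me3 at an end in either list; a missing point is a gene without a call. All 18 joined pairs for H3K27me3 have the CPI-0209 point to the left, and EZH2 pairs run both ways.

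EZH2 was called at more members than its mark was, and at more in CPI-0209 than in DMSO. At least 1 end had EZH2 at 33 members in CPI-0209 and 27 in DMSO, beside 71.5% and 54.6% of all genes, and both ends at 16 and 8, beside 25.9% and 17.5%. The 8 members with both ends in DMSO (WNT1, WNT10B, WNT11, FZD7, FZD8, FZD9, SFRP1 and SFRP5) all had both in CPI-0209, as did 87.9% of such genes overall. More ends had EZH2 in CPI-0209 than in DMSO at 15 members (26% of all genes). Among them were WNT3A, WNT4, WNT6 and WNT9B, the receptors FZD2, FZD3, FZD4 and FZD10, and SFRP4, DKK1 and DKK3. Fewer ends had EZH2 in CPI-0209 than in DMSO at 2, WNT8A and WNT16 (4.48% of all genes). At DKK1 the EZH2 interval measured 1.8 kb in CPI-0209, against none within 611.7 kb of an end window in DMSO. At SFRP4 it measured 1.0 kb, against none within 453.1 kb. At FZD2, EZH2 covered 28.3% of record and flanks in CPI-0209 and none in DMSO. FZD2 was the only member without an EZH2 end in DMSO that had both in CPI-0209 (4.13% of all genes). A single interval of 2.2 kb gave both of these calls, over 55.0% of the window at the lower coordinate and 3.47% of the other. With windows of 1 kb only 1 end of FZD2 had EZH2 in CPI-0209. The calls in CPI-0209 alone were wider at WNT4, a ligand of kidney and female reproductive development, with 11.2 kb, and at DKK3, with 6.4 kb, and narrow at FZD3, with 2.6 kb, and WNT8B, with 1.6 kb. Another 7 members had 1 EZH2 end in DMSO and both in CPI-0209, and their widest EZH2 interval at either end, which need not be the one at the added end, was narrower in CPI-0209 at WNT10A alone. It measured 10.0 kb in CPI-0209 and 3.6 kb in DMSO at WNT9A, at WNT7B 3.2 kb and 2.8 kb, and at WNT10A 5.2 kb and 7.8 kb. WNT6 had 12.6 kb and 11.2 kb, WNT9B 17.8 kb and 13.0 kb, and FZD10 4.6 kb and 2.8 kb. The added ends of WNT6 and WNT10A were marked by the same CPI-0209 interval of 3.4 kb, so these calls are 1 event. At WNT3A the interval ran from 227998801 to 228025800 on chromosome 1 in CPI-0209, and from 227999001 to 228016000 in DMSO. At WNT8A and WNT16 the call at an end window was in DMSO alone, from intervals of 15.4 kb and 5.6 kb, and the nearest CPI-0209 interval lay 1.2 kb and 1.4 kb outside the windows. EZH2 was still called nearby, since 80.3% of the DMSO EZH2 length within 10 kb of WNT8A and 32.1% of that around WNT16 was called in CPI-0209. The listed WNT16 start was under EZH2 in both conditions. The EZH2 lists covered 226.3 Mb in CPI-0209 and 193.4 Mb in DMSO, and the part of that difference in these calls was not tested.

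EZH2 was also called at members without H3K27me3 at an end, and in DMSO at a share near that of all such genes. Of 17 members with no H3K27me3 end in either condition, 14 had EZH2 at an end in CPI-0209 (82.4%, 56.6 to 96.2%). In DMSO 9 of them had it (52.9%, 27.8 to 77%). All such genes gave 63.9% in CPI-0209 and 45.3% in DMSO, shares that lie within these limits. The 17 comprised WNT2B, WNT5A, WNT7A, WNT7B, WNT8B, WNT9A, WNT10A, WNT16, FZD1, FZD2, FZD3, FZD5, FZD6, SFRP4, DKK1, DKK3 and DKK4. At FZD5 the EZH2 interval over the start measured 5.4 kb in CPI-0209 and 7.0 kb in DMSO, and at WNT7A 7.0 kb and 7.6 kb. FZD1 had 4.2 kb and 4.0 kb. FZD6, a polarity receptor without a listed start, had EZH2 intervals of 2.6 kb and 5.6 kb at the lower-coordinate end of its record. WNT2B and WNT5A had neither mark at either end, while listed starts inside their records had both marks in both conditions. WNT2B has another listed start at the low end of its record, with no call in any of the 4 lists. At WNT5A, the best known non-canonical ligand, H3K27me3 covered 100% of the window around one start in CPI-0209 and in DMSO.

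At annotated starts, which tell the promoter end apart from the far end, most marked members were marked in both conditions. Of the 26 members with a listed start, 15 had H3K27me3 within 2 kb of one in CPI-0209 and 16 in DMSO, beside 18.1% and 25.4% of 15812 genes. Of the 16, 14 were marked in CPI-0209 (87.5%, 61.7 to 98.4%), beside 69.4% of 4014 genes. The exceptions were again FZD4 and DKKL1, and FZD9 was the only 1 of 10 members unmarked at the start in DMSO that was marked in CPI-0209 (0.627% of all such genes). EZH2 lay at 15 of the 16 marked starts in CPI-0209 and 13 in DMSO, beside 87.7% and 73.4%. H3K27me3 was called in CPI-0209 at 12 of those 13 (84.6% of all such genes) and at 2 of the 3 without EZH2 in DMSO (27.5%), namely WNT4 and WNT8A but not FZD4. All 11 ligand genes with a marked start in DMSO had one in CPI-0209. EZH2 lay at the start of 24 members in CPI-0209 and 20 in DMSO, beside 71% and 52.2%. All 20 with EZH2 in DMSO had it in CPI-0209 (95.2% of all such genes), and the other 4 were WNT4, SFRP4, DKK1 and FZD4, beside 44.6% of genes whose start had none in DMSO.

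The stretch of H3K27me3 around these starts was shorter in CPI-0209. At the WNT1 start it reached 1.92 kb upstream and 4.68 kb downstream without a break in CPI-0209, against 20.5 kb and 22.9 kb in DMSO. At the SFRP5 start the reach was 3.2 kb upstream and 3.0 kb downstream in CPI-0209, against 19.4 kb and 5.0 kb in DMSO. At WNT3 it was 7.91 kb and 8.09 kb in CPI-0209, against 84.9 kb and 31.9 kb in DMSO, and the EZH2 interval on the WNT3 start reached 7.71 kb and 7.89 kb in CPI-0209 and 6.91 kb and 8.89 kb in DMSO. At WNT3 in CPI-0209 both marks thus had a like reach, which was not so at the WNT1 and WNT3A starts. EZH2 on the WNT1 start reached 10.5 kb upstream and 23.3 kb downstream in CPI-0209, beyond H3K27me3, and 3.12 kb and 11.1 kb in DMSO. The DMSO reach stopped at short gaps, with further EZH2 intervals from -16.721 to -3.722 kb and from 11.879 to 25.878 kb of the start. Within 10 kb of the WNT1 record, EZH2 measured 24.3 kb in CPI-0209 and 22.9 kb in DMSO. At the WNT3A start H3K27me3 reached 3.8 kb and 4.2 kb in CPI-0209, against 7.8 kb and 7.0 kb in DMSO, and EZH2 8.2 kb and 18.8 kb in CPI-0209, against 8.0 kb and 9.0 kb in DMSO. WNT8A differed from these, with H3K27me3 over 10.8% of the window around its start in CPI-0209 and 100% in DMSO, and no EZH2 in that window in either.

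The same was visible over the 15 starts, of 14 members, that had H3K27me3 within 2 kb in both conditions. At 5 kb upstream 3 of the 15 were under H3K27me3 in CPI-0209 and 13 in DMSO, and at 5 kb into the gene 3 and 9. Over the 3717 such starts of all genes the shares 5 kb upstream were 29.6% in CPI-0209 and 63.5% in DMSO. For EZH2, 7 of the 15 were covered 5 kb upstream in CPI-0209 and 8 in DMSO, and at 5 kb into the gene 7 and 5. At 10 kb upstream the EZH2 counts were 5 in CPI-0209 and 2 in DMSO, and at 10 kb into the gene 5 and 3. The cover at the start itself follows from how these starts were chosen and is given as a description only. The median count of CG in the promoters was 31 at the 15 starts with H3K27me3 in both conditions, 27.5 at the 8 with EZH2 alone, and 10 at the 3 with no call. Over all genes these medians were 22, 27 and 5.

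**Figure D4:**
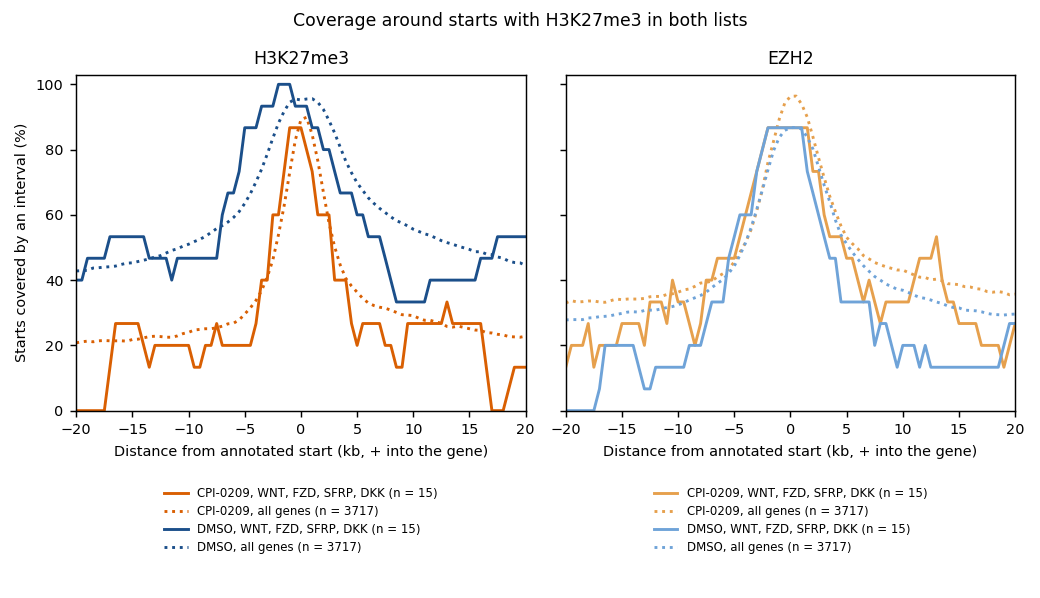
Percent of annotated starts under a called interval by distance in kb from the start (positive into the gene), for starts with H3K27me3 within 2 kb in both lists: 15 starts of the WNT, FZD, SFRP and DKK genes (solid) and 3717 of all genes (dotted), CPI-0209 and DMSO. The H3K27me3 curve is narrow in CPI-0209 and broad in DMSO, with 3 and 13 of the 15 starts covered at 5 kb upstream. EZH2 covers 7 and 8 of them there, and 5 and 2 at 10 kb upstream.

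Of the H3K27me3 length in DMSO, a larger share was called again in CPI-0209 under EZH2 than outside it. Within 10 kb of the 38 gene records H3K27me3 measured 287.5 kb in CPI-0209 and 550.5 kb in DMSO, a ratio of 0.522, and 51.3% of the DMSO length was called in CPI-0209. Around all protein-coding genes the ratio was 0.409 and the share 40.5%. Of DMSO H3K27me3 under DMSO EZH2 (302.4 kb) 71.5% was called again, and of that outside it (248.1 kb) 26.6%. Around all genes these shares were 70.6% and 10.8%. The order was the same in each subfamily. For WNT genes the shares were 75.7% and 30.6%, for FZD genes 51.2% and 7.98%, for SFRP genes 68.2% and 32.9%, and for DKK genes 38.3% and 5.88%, the last over only 12.8 kb of DMSO H3K27me3. FZD genes had the lowest share of DMSO length called again, 20.4% of 59.8 kb, and WNT genes had 54.9% of 392.1 kb. EZH2 around the members measured 502.3 kb in CPI-0209 and 391.0 kb in DMSO, a ratio of 1.28, beside 1.17 around all genes.

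**Figure D5:**
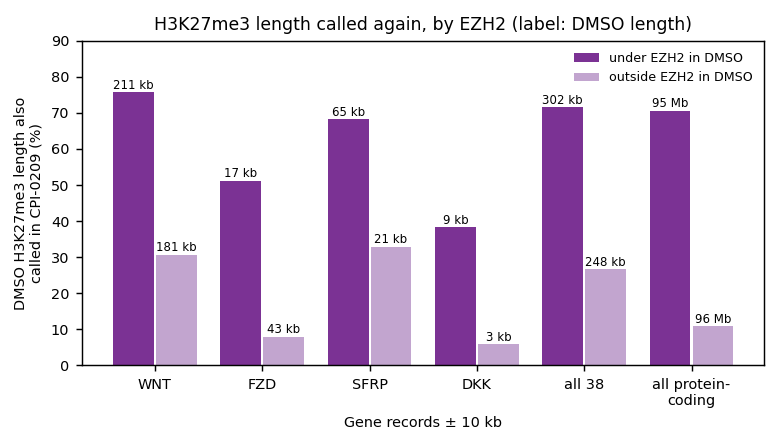
Percent of the DMSO H3K27me3 length within 10 kb of gene records that was also called in CPI-0209, for length under a DMSO EZH2 interval (dark) and outside one (light), by subfamily, over all 38 genes and over all protein-coding genes; labels give the DMSO length. The dark bar is the higher in every set, 71.5% against 26.6% over the 38 genes.

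The other genes of the pathway were scored in the same way from a list of 69. At least 1 end had H3K27me3 at 28 of them in CPI-0209 and 33 in DMSO, beside 21.7% and 31.3% of all genes, and both ends at 11 and 18, beside 8.68% and 15.2%. Of the 18, 11 had both ends in CPI-0209, 6 had 1 and 1 had neither, beside 56.3%, 27.2% and 16.6% of all such genes, so the kept share was near that of all genes. The role with the most marked genes was that of other secreted regulators, of which 9 of 13 had an H3K27me3 end in CPI-0209 and 11 in DMSO. The 11 genes with both ends in both conditions were the receptors ROR2 and LGR6, the secreted regulators SOST, APCDD1, RSPO1 and RSPO4, the DKK receptor KREMEN2, and the cytoplasmic regulators APC2, NKD1, NKD2 and DACT3. At RSPO1, an R-spondin that amplifies WNT signals, the widest H3K27me3 interval measured 19.2 kb in CPI-0209 and 83.2 kb in DMSO, and at SOST, which encodes the LRP antagonist sclerostin, 7.8 kb and 35.0 kb. The 6 with 1 end left were LGR5, AXIN2, DACT2, TCF7L1, VANGL2 and PRICKLE1. AXIN2, a feedback inhibitor of β-catenin signalling, had intervals of 7.6 kb in CPI-0209 and 19.2 kb in DMSO. SOSTDC1, a secreted antagonist, had H3K27me3 at neither end in CPI-0209, against both ends and a 26.6 kb interval in DMSO, with no EZH2 end in either. Of the 13 nuclear factors, 5 had an H3K27me3 end in CPI-0209 and 6 in DMSO, among them the transcription factor genes LEF1 and TCF7.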

How the data were processed

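Each deposited list gives the position of called intervals and no other value, per the file headers. The submitters' processing notes name the tools BWA and SICER and the build hg38, with role, version and settings not given in the sources used here. All starts and widths are multiples of 200 bp. Intervals overlap within each list, and no source used here says what a list combines. The overlapping intervals were merged, and coordinates are printed counting from 1. RefSeq GRCh38.p14 gene records on the 22 autosomes and X, and RefSeq promoters for the starts, were scored with Python 3.11.15, numpy 2.4.6, pandas 2.3.3 and scipy 1.17.1, after the interval functions were tested on simulated data. A gene has 2 windows, 2 kb either side of each record end. A missing interval is no proof of a missing mark, and fewer reads or more background can shorten a list. H3K27me3 lists covered 113.8 Mb in CPI-0209 and 315.1 Mb in DMSO. The members and gene lists were chosen with earlier results of these data known. Every member is named. Pathway genes are named where both ends had H3K27me3 in either list, and other genes were chosen after their values were seen. Limits are exact Clopper-Pearson. Other windows, coverage minimums, interval widths and list lengths were tried as alternatives.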

Additional observations from a re-analysis of the deposited data

How the results depend on the processing

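Counts of members held within 1.5 times of the values above with windows of 1 kb and with intervals of 2 kb or wider. With windows of 5 kb, EZH2 marked both ends of 13 members in DMSO and 2 members lost H3K27me3, meaning both ends in DMSO and neither in CPI-0209. With at least 50% of a window covered, H3K27me3 marked both ends of 3 members in CPI-0209, 3 had it at both ends in both conditions and 2 lost it, and EZH2 marked both ends of 8 in CPI-0209 and 5 in DMSO. Over stretches under 2 intervals of the same list, H3K27me3 marked both ends of 1 member in CPI-0209 and 7 in DMSO and at least 1 end of 6 in CPI-0209, 1 had it in both conditions and 3 lost it, and EZH2 marked both ends of 7 in CPI-0209 and 1 in DMSO. With the longer list of each pair shortened to its widest intervals, H3K27me3 marked both ends of 4 members and at least 1 end of 7 in DMSO, fewer than in CPI-0209, 3 had it in both conditions and 0 lost it, and EZH2 marked both ends of 9 in CPI-0209. This setting removes narrow intervals from 1 list of each pair, so the turned order follows from its construction. At annotated starts, over 26 members, H3K27me3 was at 15 in CPI-0209, 14 had it in both conditions and 2 lost it, and EZH2 was at 20 in DMSO. With gaps under 5 kb joined, the median width at members with both ends in both conditions was 20.6 kb in CPI-0209, against 8.8 kb as merged. Other causes were not tested. No paired analysis was possible because each group has 1 library. The lists carry no depth, so a missing call and a weak mark cannot be told apart.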

Other observations

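GSK3B, the kinase that marks β-catenin for destruction, had H3K27me3 at 1 end in CPI-0209, in an interval of 13.2 kb, against neither end in DMSO. Of all genes, 0.541% had more H3K27me3 ends in CPI-0209 than in DMSO. No annotated GSK3B start had H3K27me3 within 2 kb in either condition, while EZH2 was called at a start in both. At TCF7 the widest H3K27me3 interval at an end measured 7.2 kb in CPI-0209 and 6.0 kb in DMSO, and EZH2 an interval of 33.6 kb in CPI-0209, against none in DMSO. Within 2 kb of an annotated TCF7 start, however, H3K27me3 was called in DMSO alone and EZH2 in CPI-0209 alone. DACT2 had an EZH2 interval of 60.0 kb in CPI-0209, against none at its ends in DMSO, and H3K27me3 intervals of 2.2 kb in CPI-0209 and 53.2 kb in DMSO. These 3 genes were chosen after their values were seen.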
